A study of Rattus norvegicus with 26 samples.

Results

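The transcripts described here are those of the glycine receptor subunits α1, α2, α3 and β (Glra1, Glra2, Glra3 and Glrb) and of gephyrin (Gphn), 5 of the 32883 genes counted by RNA sequencing in rat spinal cord. Members were chosen by gene symbol and not by a threshold on their values, though with earlier results of these data known. The 26 libraries came from wild type female Sprague-Dawley rats of 250 g, labelled as postnatal day 70, and each held a spinal cord segment of 5 mm. The 8 groups were untreated cord (Intact, 4 libraries), cord at the time of transplantation, 7 days after a compression of T10 for 1 min with a clip of 60 g (sub-SCI, 3 libraries), and injured cord taken 1, 2 or 4 weeks post-transplantation (wpt). At that time the rats had received human umbilical cord mesenchymal stem cells intrathecally (hUC-MSCs; +MSC-1w, +MSC-2w and +MSC-4w with 3, 3 and 4 libraries) or phosphate-buffered saline alone (+PBS-1w, +PBS-2w and +PBS-4w with 3, 2 and 4 libraries). Intact stands for intact or sham rats in the study's text, and its methods have the rats on daily cyclosporin A, an immunosuppressant for the xenograft, without saying whether Intact rats received it. The study's text and the labels differ on how many +MSC-2w and +PBS-2w libraries there are, the labels were used here, and the 2 wpt comparisons rest on them. The Intact libraries share no injury or injection with the other groups, and the labels name no animal, so p-values measure the spread between these libraries.

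Glycine is, with γ-aminobutyric acid, the fast inhibitory transmitter of the spinal cord. Its receptor is a pentamer of α and β subunits around a chloride channel: the α subunits carry much of the agonist site and can form channels on their own, whereas the β subunit binds gephyrin, the scaffold that holds the receptor under the glycine-releasing terminal. In the adult cord α1 is the usual partner of β, α2 is prominent in the immature nervous system, and α3 is known from the superficial dorsal horn, where it has been tied to inflammatory pain. Gephyrin also clusters many γ-aminobutyric acid type A receptors and catalyses the last steps of molybdenum cofactor synthesis.

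The promoter of the β subunit gene is shown because, of the windows found, only that of Glrb adjoins the outer end of its RefSeq gene. Whether promoter sequence bears on the changes described below was not tested. RefSeq windows (build GRCr8) were found for Glrb, Gphn, Glra2 and Glra3, 4 of the 5 members. The 250 bases before the Glrb start site, at chr2:168505615-168505864 on the minus strand, read as follows, 5′ to 3′, with the GC box letters GGGCGG, on either strand, in capitals.
Glrb: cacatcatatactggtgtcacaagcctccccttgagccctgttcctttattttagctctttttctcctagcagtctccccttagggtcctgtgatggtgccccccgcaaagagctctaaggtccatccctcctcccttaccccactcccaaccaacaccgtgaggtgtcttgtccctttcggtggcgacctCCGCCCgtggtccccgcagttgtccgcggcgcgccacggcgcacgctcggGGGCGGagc
This window held 2 GC boxes and 16 CpG dinucleotides at 61.2% G and C. Each of the other windows held 1 GC box, with 32 CpG dinucleotides and 72.4% G and C for Gphn, 7 and 52.4% for Glra2 and 4 and 56.4% for Glra3. Over all 33469 windows of the same length, 30.5% held that motif on either strand, the median number of CpG dinucleotides was 5 and the median G and C content was 51.2%. The TATA box letters TATAAA occurred in the Glra2 window and not in the other windows, against 12.9% of all windows, and the CCAAT letters occurred in the Glra3 window and not in the others, against 34% of all.

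Library totals lay between 19496602 and 43468509 counts, and all 5 members passed the filter on low counts, among 17990 genes tested. Levels are given as CPM, counts scaled to a common library size after TMM normalisation, which corrects library totals for composition. Hoxc8, a gene of the thoracic cord chosen here after its values were seen, lay between 20.6 and 48.3 CPM in every library. The library labelled +PBS-4w replicate 1 stood apart from its group: its Glrb level was 169 CPM against 76 to 81 CPM in the other 3 libraries, and its 15 neuron markers summed to 7540 CPM against 2130 to 2920 CPM, whereas its Glra1 level was the lowest of the group and it had no Glra3 count. Libraries labelled replicate 1 were the highest of their group in 6 of 8 groups for Glra2 and Gphn, in 5 for Glrb, in 3 for Glra3 and in 2 for Glra1. Values without +PBS-4w replicate 1, and without every replicate 1 library, are given beside the comparisons of +MSC with +PBS.

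In intact cord, the β subunit and α1 were the abundant glycine receptor transcripts. Per kilobase of the gene length in the deposited table, the level was 76 ± 7.75 CPM per kb for Glrb and 67.1 ± 11.6 for Glra1 (SD, n = 4), a difference within their spread. Gphn followed at 17.9 ± 2.47 CPM per kb. Glra2 (1.81 ± 0.232) and Glra3 (1.41 ± 0.228) lay far below it. Of the reads of the 3 α subunit genes, uncorrected for length, 92.5% to 95.8% came from Glra1 in the Intact libraries, 3% to 4.98% from Glra2 and 1.23% to 2.49% from Glra3.

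**Figure D1:**
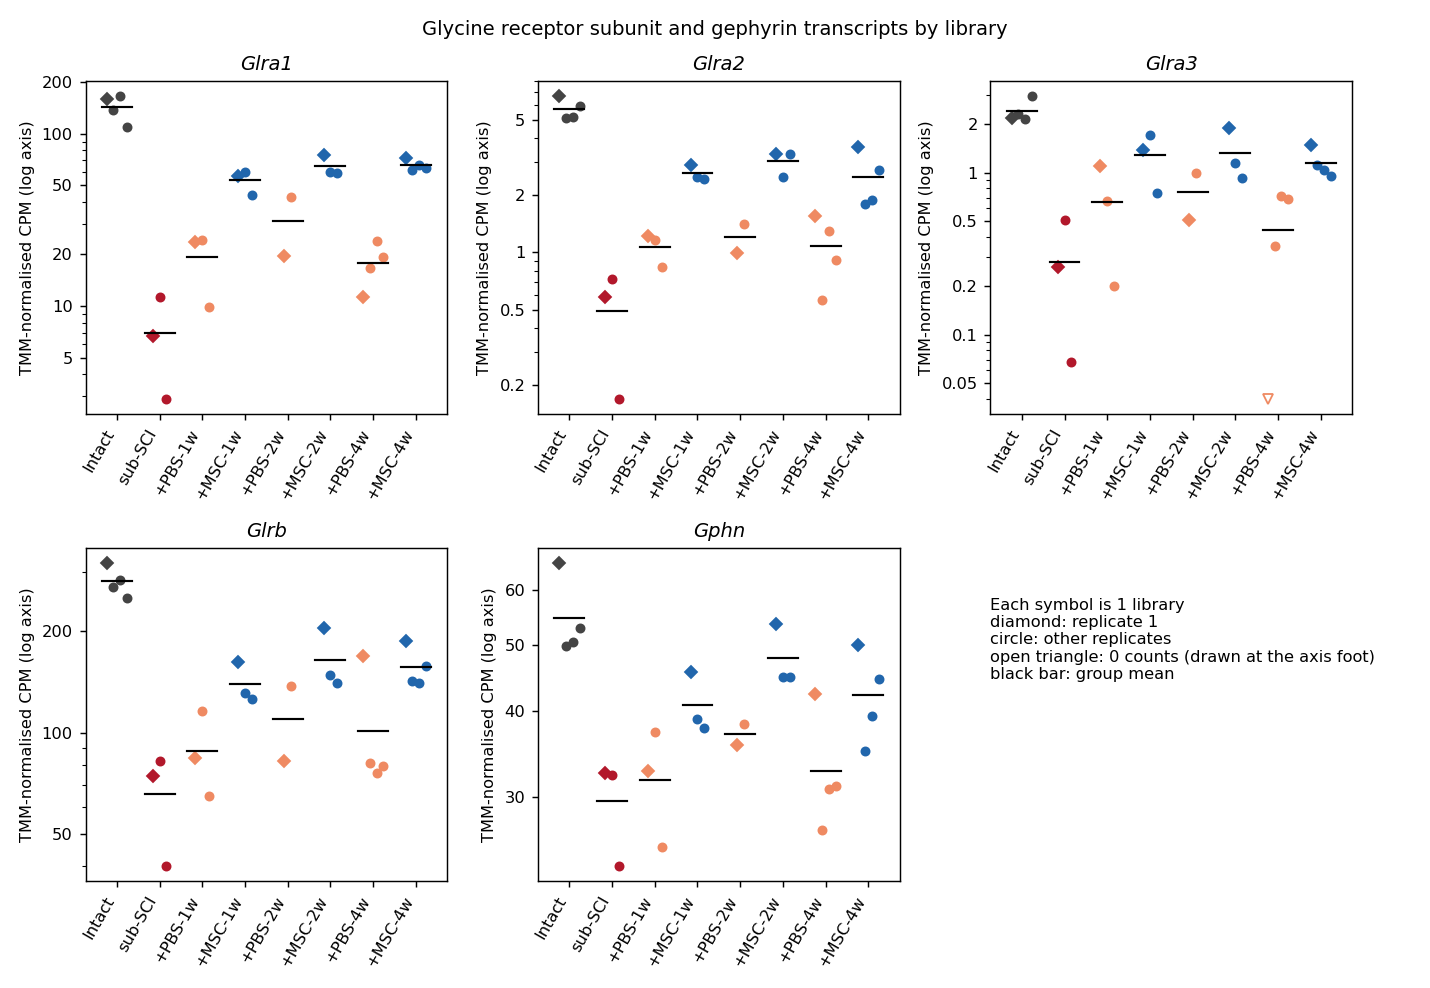
TMM-normalised CPM (log axis) of Glra1, Glra2, Glra3, Glrb and Gphn in each of the 26 libraries by group, with the group mean as a black bar. For all 5 genes every sub-SCI library lies below every Intact library, and Glra1 of every +MSC library lies above every +PBS library of its week.

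At the time of transplantation all 5 transcripts had fallen against Intact, in the order α1, α2, α3, β and gephyrin. A gene was called differentially expressed (DEG) at an absolute log2 fold change above 1 with an adjusted p under 0.01 by edgeR's quasi-likelihood test in 1 model of all libraries, and "rose" and "fell" below stand for an adjusted p under 0.05. Of the 5 members 4 were DEGs lower in sub-SCI, Gphn being the exception by the size of its change, and 17.5% of all genes tested were such DEGs. All 5 passed the wider threshold downwards, as did 30.9% of all genes, and for all 5 the CPM of the groups did not overlap, as for 34% of all genes in that direction. The members' median log2 fold change was -3.09 and that of all genes -0.02.

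Glra1, the adult α subunit, measured 158, 137, 165 and 110 CPM in Intact and 6.71, 11.2 and 2.88 CPM in sub-SCI. The lowest Intact library was far above the highest sub-SCI library, and replicate 3 was the lowest sub-SCI library. The fitted level was 20.6-fold lower (log2 fold change -4.36, SE 0.41, adjusted p = 1.16e-08, edgeR), with 0.428% of all genes tested showing a more negative value.
Glra2 measured 6.66, 5.08, 5.18 and 5.93 CPM in Intact against 0.581, 0.725 and 0.169 CPM in sub-SCI, where the 3 libraries together held 45 counts. It fell 11.5-fold (log2 fold change -3.53, SE 0.396, adjusted p = 1.41e-07, edgeR). Glra3, at 2.13 to 2.96 CPM in Intact and 0.0678 to 0.507 CPM in sub-SCI, rested on 25 counts in sub-SCI, and its log2 fold change of -3.09 carried an SE of 0.705 (adjusted p = 0.00067, edgeR).

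Glrb, which tethers the receptor to gephyrin, measured 320, 272, 284 and 252 CPM in Intact and 74.3, 82.3 and 40.2 CPM in sub-SCI. Again replicate 3 was the lowest injured library, and the groups lay apart. The transcript fell 4.3-fold (log2 fold change -2.10, SE 0.294, adjusted p = 2.68e-06, edgeR).
Gphn changed least: 65.8, 49.7, 50.4 and 52.8 CPM in Intact became 32.5, 32.3 and 23.8 CPM in sub-SCI. Its fall was 1.85-fold (log2 fold change -0.89, SE 0.168, adjusted p = 9.78e-05, edgeR), and 24% of all genes tested had a more negative change.

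The neuron markers fell in the same libraries. All 15 (among them Rbfox3, Snap25 and Syt1) had lower values, with a median log2 fold change of -2.58 and a range of -3.40 to -1.51, and their summed level was 11800 to 14300 CPM in Intact and 814 to 2830 CPM in sub-SCI with no marker at 0 in any library. Markers of microglia and macrophages summed to 298 to 473 CPM in Intact and 2710 to 3620 CPM in sub-SCI, and those of fibroblasts to 66.1 to 633 CPM and 3910 to 7930 CPM. Of the 8 oligodendrocyte markers 7 fell (median -1.14, summed level 50900 to 57800 CPM in Intact and 17600 to 35900 CPM in sub-SCI), and of the 8 astrocyte markers 5 fell (median -1.15, 11600 to 13400 CPM and 6200 to 12200 CPM). In these bulk segments fewer neurons and less RNA per neuron cannot be told apart, and the part of the cell mixture in the members' changes was not tested beyond the comparison with neuron markers given below.

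Without hUC-MSCs the transcripts stayed below Intact at each week, with every +PBS library below every Intact library for each of the 5 genes (30.5%, 31.3% and 21.3% of all genes had ranges apart in that direction at 1, 2 and 4 wpt). These comparisons and that of sub-SCI share the same 4 Intact libraries. At 1 wpt 3 members were DEGs lower than Intact (12.5% of all genes tested), 3 were at 2 wpt (5.66%) and 4 were at 4 wpt (10.7%). The wider threshold was passed downwards by 5, 4 and 5 members, and by 26.4%, 17% and 23.9% of all genes.
Glra1 levels were 23.4, 24.1 and 9.88 CPM in +PBS-1w, 19.6 and 43 CPM in +PBS-2w, and 11.3, 16.5, 23.8 and 19.3 CPM in +PBS-4w. These levels overlapped between the weeks. The log2 fold changes from Intact were -2.89, -2.19 and -3.01 (SE 0.377, 0.428 and 0.339; adjusted p = 1.98e-06, 0.000467 and 3.5e-07, edgeR).
For Glra2 the same fit gave -2.40, -2.25 and -2.39 (adjusted p = 1.4e-05, 0.000351 and 4.65e-06), and for Glrb -1.67, -1.35 and -1.48 (adjusted p = 5.49e-05, 0.0032 and 7.23e-05). Gphn fell by less than the DEG threshold at each week (-0.78, -0.56 and -0.74; adjusted p = 0.000487, 0.0247 and 0.00039). Glra3 fell at 1 and 4 wpt (-1.84 and -2.47; adjusted p = 0.0204 and 0.00197), and its value at 2 wpt was -1.66 (adjusted p = 0.0844).

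The 2 wpt comparison rested on 1 library of a group of 2. Without +PBS-2w replicate 1, the lone library was assumed to vary like those of the other groups, no member was called a DEG, and the log2 fold changes were -1.70 for Glra1 (adjusted p = 0.0359), -1.99 for Glra2 (0.0229) and -1 for Glrb (0.116) by the same edgeR test. With every replicate 1 library left out, the count at 2 wpt was also 0. In the sub-SCI comparison and at 1 and 4 wpt no single library changed the count by that much: it stayed between 4 and 4, 3 and 4, and 4 and 4.

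Between sub-SCI and +PBS-4w, Glra1 rose from 6.93 ± 4.16 CPM (SD, n = 3) to 17.7 ± 5.2 (n = 4), by 1.36 on the log2 scale (SE 0.362, adjusted p = 0.00897, edgeR), and it was the only member among the DEGs, where 4.28% of all genes were higher DEGs. Glra2 rose by 1.13 (adjusted p = 0.0337), so that 2 members passed the wider threshold, against 13.4% of all genes. The differences of Glra3 (0.63), Glrb (0.63) and Gphn (0.15) had adjusted p = 0.558, 0.104 and 0.541. Between +PBS-1w and +PBS-4w no member passed either threshold by edgeR (0 of 5 at an unadjusted p under 0.05), and 1.8% of all genes passed the wider one in either direction.

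**Figure D2:**
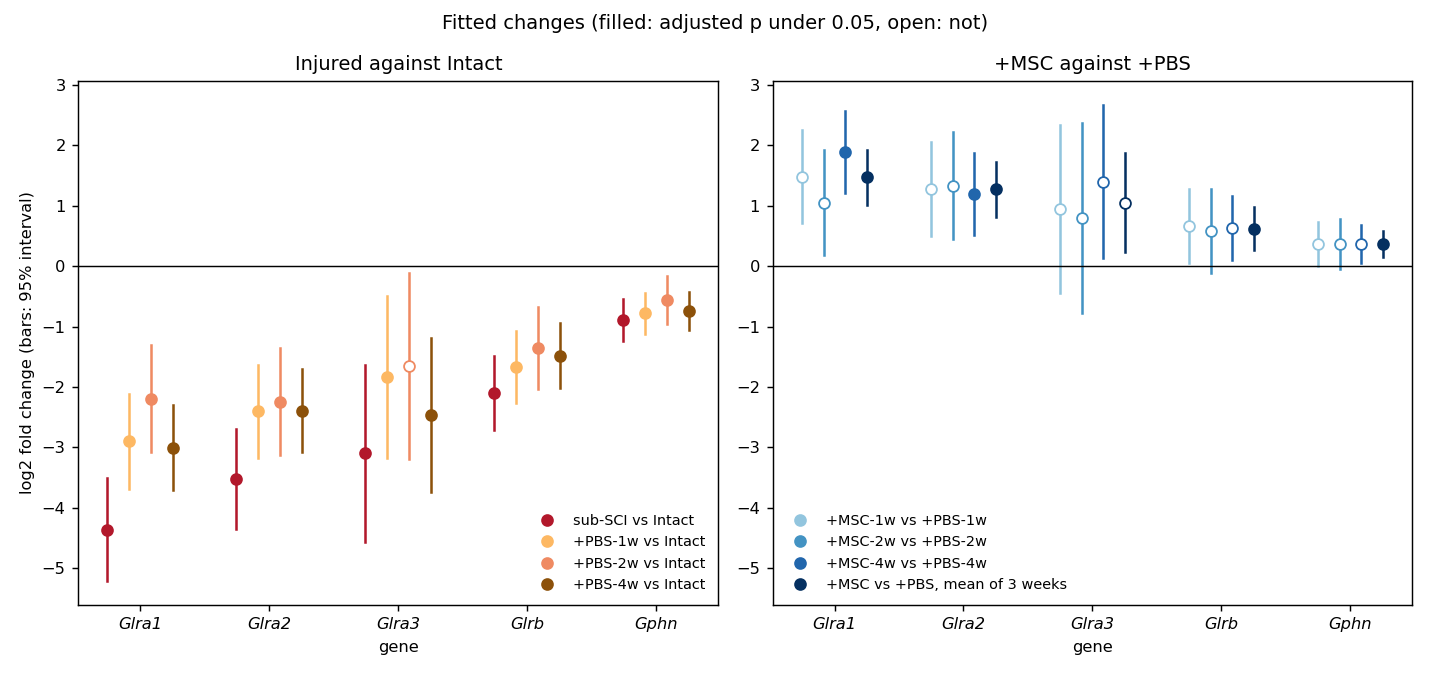
Fitted log2 fold changes of the 5 genes with their 95% intervals, for the injured groups against Intact (left) and for +MSC against +PBS (right). In sub-SCI the fall is largest for Glra1 (-4.36) and smallest for Gphn (-0.89), and over the 3 weeks the difference between +MSC and +PBS is 1.47 for Glra1 and 0.37 for Gphn.

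After hUC-MSC transplantation the α1 and α2 transcripts were higher than in +PBS, and β and gephyrin rose by less. Averaged over the 3 weeks, Glra1 was 2.78-fold higher in +MSC (log2 fold change 1.47, SE 0.218, adjusted p = 0.000387, edgeR) and Glra2 2.41-fold higher (1.27, SE 0.219, adjusted p = 0.000776). These 2 of the 5 members were DEGs, against 1.61% of all genes in that direction. Glrb rose 1.54-fold (0.62, SE 0.171, adjusted p = 0.0131) and Gphn 1.29-fold (0.37, SE 0.102, adjusted p = 0.0144), so that 4 members passed the wider threshold, against 12.3% of all genes. The estimate for Glra3 was of similar size with a wider error (1.05, SE 0.395, adjusted p = 0.0589).
The calls of Glrb and Gphn over the 3 weeks each rested on +PBS-2w replicate 1: without it the values were 0.49 and 0.33 (adjusted p = 0.0979 and 0.0768, edgeR). With every replicate 1 library left out they were 0.48 and 0.31 (adjusted p = 0.0633 and 0.0652), and without +PBS-4w replicate 1 they were 0.72 and 0.39 (adjusted p = 0.000676 and 0.00251). Glra3 passed the wider threshold without +PBS-4w replicate 1 (0.88, adjusted p = 0.0302), and with every replicate 1 library left out it was at 0.79 (adjusted p = 0.186).

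By week, Glra1 levels were 56.4, 60.2 and 44.1 CPM in +MSC-1w, 75.6, 59.9 and 58.7 CPM in +MSC-2w, and 71.9, 61.2, 66.1 and 63.1 CPM in +MSC-4w. Each of these 10 libraries was above all 9 +PBS libraries, whose highest was 43 CPM in +PBS-2w. The difference from +PBS passed the DEG threshold at 4 wpt alone (1.89, SE 0.326, adjusted p = 0.00446, edgeR). At 1 and 2 wpt it was 1.48 (95% interval 0.71 to 2.25, adjusted p = 0.077) and 1.05 (0.18 to 1.92, adjusted p = 0.339).
The weeks themselves were not shown to differ: the change in the effect of hUC-MSCs on Glra1 was 0.41 from 1 to 4 wpt (95% interval -0.60 to 1.41, adjusted p = 0.999, edgeR) and 0.84 from 2 to 4 wpt (-0.22 to 1.9, adjusted p = 1). No member passed either threshold in these differences (0 of 5 at an unadjusted p under 0.05), nor did any of all genes (0%).

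Glra2 levels were 2.88, 2.51 and 2.44 CPM in +MSC-1w, 3.3, 2.5 and 3.29 CPM in +MSC-2w, and 3.58, 1.81, 1.9 and 2.71 CPM in +MSC-4w. In the +PBS groups of the same weeks they were 1.22, 1.16 and 0.84 CPM, 0.992 and 1.41 CPM, and 1.56, 0.564, 1.3 and 0.917 CPM. The 2 treatments did not overlap at any week. Glra2 rose at 4 wpt (1.2, SE 0.326, adjusted p = 0.0416, edgeR), and its values at 1 and 2 wpt were 1.28 and 1.33 (adjusted p = 0.111 and 0.263). With 1 library left out the 4 wpt value stayed between 0.97 and 1.4, but its adjusted p ran from 0.0105 (without +PBS-4w replicate 1) to 0.168 (without +MSC-4w replicate 1) and missed the threshold in 14 of 26 fits, and with every replicate 1 library left out it was 1.21 (adjusted p = 0.0627).
Glra3 was 0.748 to 1.71, 0.925 to 1.88 and 0.946 to 1.47 CPM in +MSC and 0.2 to 1.1, 0.512 to 1 and 0 to 0.716 CPM in +PBS. The treatments overlapped at 1 and 2 wpt. The log2 differences were 0.94, 0.80 and 1.4 with SEs of 0.611 to 0.755 (adjusted p = 0.493, 0.702 and 0.175, edgeR), for a gene with 41 to 139 counts per group. Without +PBS-4w replicate 1, which had no Glra3 count, the 4 wpt value was 0.94 (adjusted p = 0.191).

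Glrb levels were 162, 131 and 126 CPM in +MSC-1w, 205, 148 and 141 CPM in +MSC-2w, and 188, 142, 141 and 158 CPM in +MSC-4w. The +PBS values were 84.3, 116 and 65 CPM, 82.3 and 138 CPM, and 169, 81, 76 and 79.8 CPM. At 1 and 2 wpt the treatments did not overlap, and at 4 wpt +PBS-4w replicate 1 exceeded 3 of the 4 +MSC libraries. The log2 differences were 0.66, 0.58 and 0.63 (adjusted p = 0.243, 0.483 and 0.144, edgeR), and without +PBS-4w replicate 1 the 4 wpt value was 0.97 (adjusted p = 0.00732). With every replicate 1 library left out it was 0.91 (adjusted p = 0.0275, edgeR).
Gphn in +MSC was 37.8 to 45.6, 44.8 to 53.5 and 35 to 49.9 CPM, and in +PBS 25.3 to 37.3, 35.7 to 38.3 and 26.8 to 42.3 CPM. Only at 4 wpt did the ranges overlap. Its log2 differences were 0.36, 0.37 and 0.36 (adjusted p = 0.285, 0.451 and 0.159, edgeR). Without +PBS-4w replicate 1 the 4 wpt value was 0.48 (adjusted p = 0.0259), and with every replicate 1 library left out 0.43 (adjusted p = 0.0805).

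At 1 and 2 wpt no member was called by edgeR, whose higher DEGs were 0% of all genes at both weeks and whose wider threshold was passed upwards by 0.0389% and 0%. An unadjusted p under 0.05 was reached by 3 and 2 members, and in the same direction by 10.6% and 5.49% of all genes. DESeq2 on the libraries of the compared groups called 2 members at 1 wpt (Glra1 1.46, adjusted p = 0.00119, and Glra2 1.26, adjusted p = 0.00302) and none at 2 wpt, where this fit called 1.48% and 0.467% of the genes it tested higher. DESeq2 on all libraries called no member at either week, with 0.174% and 0.0152% of genes called higher. At 4 wpt Glra1 was the 1 member called, against 0.495% of all genes, and 2 members passed the wider threshold, against 3.07%. The CPM ranges lay apart for 4, 4 and 3 members at the 3 weeks, and for 15.3%, 18.6% and 6.08% of all genes in that direction.

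The 4 wpt call of Glra1 depended on its libraries at the threshold of 0.01. Without +MSC-4w replicate 1 or replicate 4, or +PBS-4w replicate 2 or replicate 4, the log2 difference stayed between 1.84 and 1.93 and the adjusted p lay between 0.0106 and 0.0248 (edgeR). Without +PBS-4w replicate 1, the library that stood apart, it was 1.70 (adjusted p = 0.00386). With every replicate 1 library left out, which also removes a library from each group, neither Glra1 nor Glra2 was a DEG over the 3 weeks (1.25 and 1.18; adjusted p = 0.0152 and 0.0185), and Glra1 at 4 wpt was 1.68 (adjusted p = 0.0194). Of single libraries, +PBS-2w replicate 1 ended the 3-week call of Glra2 (1.17, adjusted p = 0.0127).

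The mean levels of the +MSC groups remained below Intact, though not every member passed a threshold. The mean Glra1 level was 37.6%, 45.4% and 46% of Intact at 1, 2 and 4 wpt (53.6 ± 8.41, 64.7 ± 9.41 and 65.6 ± 4.71 CPM against 143 ± 24.6; SD, n = 3, 3, 4 and 4), and that of +PBS 13.4%, 22% and 12.4%. For Glra2 the +MSC means were 45.8%, 53.1% and 43.8% of Intact, for Glrb 49.5%, 58.3% and 55.8%, and for Gphn 74.6%, 87.3% and 77.2%. Against Intact, Glra1 was lower in +MSC at each week (log2 fold change -1.41, -1.14 and -1.12; adjusted p = 0.00409, 0.0245 and 0.0105, edgeR). Gphn passed the wider threshold at no week (-0.42, -0.2 and -0.37; adjusted p = 0.0548, 0.439 and 0.0653, edgeR), and neither did Glra3 (adjusted p = 0.274, 0.358 and 0.156). At 2 wpt Glra2 and Glrb also missed it (adjusted p = 0.0653 and 0.0551).
The members called were Glra1 and Glrb at 1 wpt (2 of 5, against 2.63% of all genes), none at 2 wpt (0.461%, with 3 at an unadjusted p under 0.05) and Glra2 at 4 wpt (1.52%). The wider threshold was passed by 3, 1 and 3 members, and by 14.8%, 6.44% and 13.5% of all genes. Leaving out single libraries moved the counts of DEGs between 0 and 3, 0 and 1, and 0 and 2. From sub-SCI to +MSC-4w all 5 members rose, Glra1 by 3.24 and Glrb by 1.26 (adjusted p = 3.06e-06 and 0.00127), where 22.2% of all genes rose, and 3 were DEGs, against 10.2%.

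The order of group means ran alike for all 5 members: Intact was highest, the +MSC groups followed, then the +PBS groups, and sub-SCI was lowest. The weeks of one treatment were not shown to differ: +MSC-4w against +MSC-1w gave log2 differences of 0.29, -0.07, -0.17, 0.17 and 0.05 for Glra1, Glra2, Glra3, Glrb and Gphn (adjusted p = 1 for each, edgeR, 0 of 5 at an unadjusted p under 0.05, and 0% of all genes called).

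The balance of subunits differed between the groups, since α1 moved by more than β and β by more than gephyrin. The ratio of Glra1 to Glrb, both as counts per kb in the same library, was 0.861, 0.879, 1.02 and 0.764 in Intact and 0.158, 0.238 and 0.125 in sub-SCI. In +PBS-1w it was 0.486, 0.363 and 0.266, in +PBS-2w 0.415 and 0.543, and in +PBS-4w 0.117, 0.357, 0.546 and 0.423. In +MSC it was 0.609 to 0.803, 0.643 to 0.73 and 0.669 to 0.82. All 10 +MSC libraries thus lay above all 9 +PBS libraries, and the lowest +PBS value was that of +PBS-4w replicate 1. Normalisation between libraries cancels in such a ratio.
The ratio of Glrb to Gphn was 3.93 to 4.63 in Intact, 1.39 to 2.1 in sub-SCI, 1.9 to 3.29 in +PBS and 2.58 to 3.35 in +MSC. These ratios are descriptions, and no test was made of them.

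Within the α subunits, Glra1 supplied most reads in every library. Its share was 88.8% to 92.4% in sub-SCI, 87.9% to 94.7% in +PBS and 93% to 95.8% in +MSC. The Glra2 share was 5.43% to 7.69% in sub-SCI, where the libraries held 92 to 343 α subunit counts and the exact 95% binomial interval of the smallest ran from 1.79% to 12.2%. In +PBS-4w replicate 1 the Glra2 share was 12.1% (interval 8.89% to 16.1%), against 3.23% to 5.03% in the other libraries of that group. The same library had 0 Glra3 counts of 346 (interval up to 1.06%), and 3 counts, the limit that a count of 0 allows, would be 0.112 CPM. Such intervals cover counting error only.

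**Figure D3:**
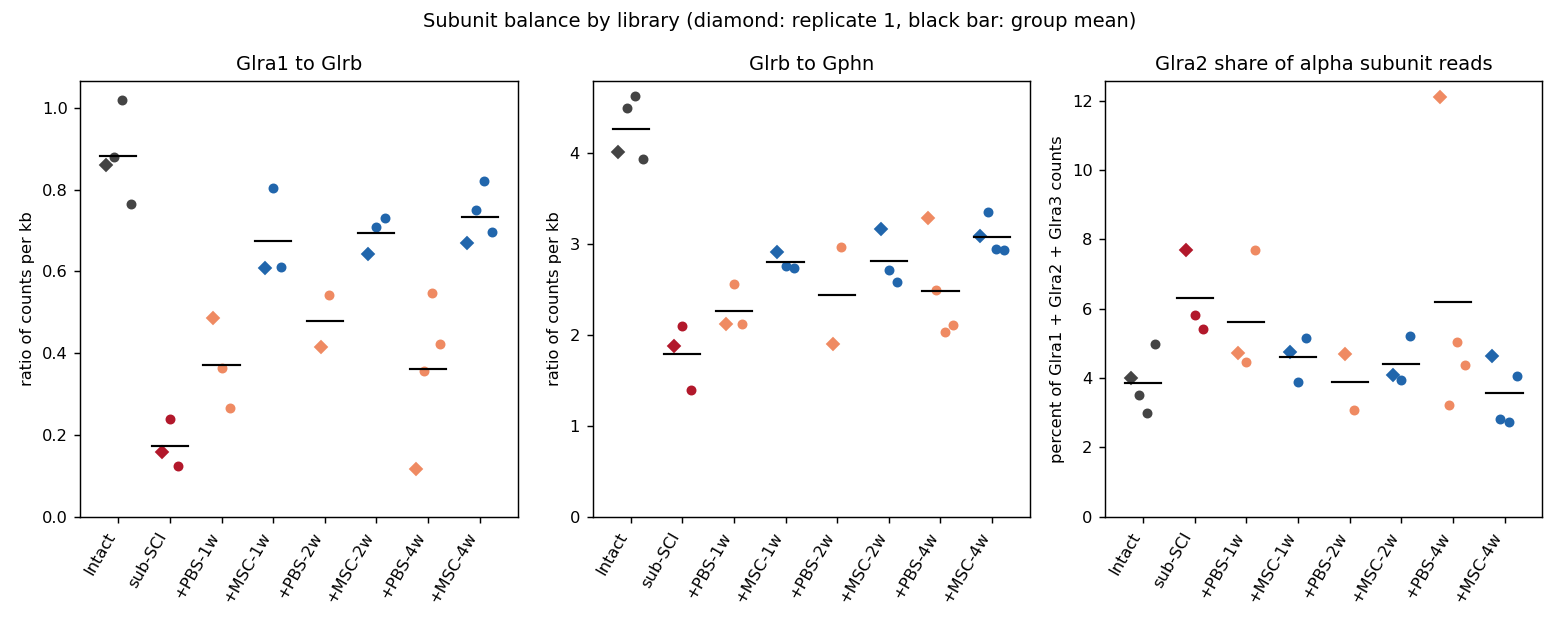
Ratio of Glra1 to Glrb and of Glrb to Gphn (counts per kb) and share of Glra2 among α subunit counts (percent) in each library by group, with the group mean as a black bar. The Glra1 to Glrb ratio is 0.764 to 1.02 in Intact and 0.125 to 0.238 in sub-SCI, and +PBS-4w replicate 1 has the lowest ratio (0.117) and the highest Glra2 share (12.1%).

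Set against the mean of the neuron markers of the same library, α1 and α2 fell further than that mean by the time of transplantation. For this comparison each library was scaled by the geometric mean CPM of the 15 neuron markers in place of TMM, and the whole table was fitted again. That scale moves the median of all genes by 2.82 (log2) in sub-SCI against Intact, by 1.53 to 2.17 in +PBS against Intact and by -1.09 in +MSC against +PBS over the 3 weeks. The calls are thus read against those of all genes on the same scale.
In sub-SCI, Glra1 was lower relative to the markers by a log2 value of -1.86 (SE 0.37, adjusted p = 5.09e-05, edgeR) and Glra2 by -1.05 (SE 0.351, adjusted p = 0.00714). These 2 members were among the 1.12% of all genes with an adjusted p under 0.05 in that direction. Glrb (0.54, adjusted p = 0.0391) and Gphn (1.87, adjusted p = 1.91e-06) were higher relative to the markers, as were 86.8% of all genes. The value of Glra3 was -0.69 (adjusted p = 0.352). The markers themselves lay between -1.02 and 1.18 on this scale, a spread that held Glra3 and Glrb and whose lower end was near Glra2. The adjusted p-values take the mean of the markers as fixed and leave this spread out. On the TMM scale the 7 inhibitory neuron markers had a median log2 fold change of -2.93, against -2.58 for the 15 neuron markers. With the median of the markers in place of their mean, Glra1 was at -2.44 and Glra2 at -1.65 (adjusted p = 3.23e-05 and 0.00275), and Glrb turned to -0.05 (adjusted p = 0.894).

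In +PBS against Intact, Glra1 relative to the markers was -0.88, -0.79 and -0.83 at 1, 2 and 4 wpt (adjusted p = 0.0248, 0.0836 and 0.02, edgeR). Glra1 was thus lower at 1 and 4 wpt, where 0.439% and 0.345% of all genes were (0.289% at 2 wpt). Without +PBS-4w replicate 1 the 4 wpt value was -0.52 (adjusted p = 0.0535), and without Intact replicate 3 it was -0.73 (adjusted p = 0.0556, edgeR). The 1 wpt call was lost without Intact replicate 3, +PBS-1w replicate 1 or +PBS-1w replicate 3 (-0.78, -0.84 and -0.78; adjusted p = 0.0604, 0.0625 and 0.0821). Gphn was higher at each week (1.35, 0.96 and 1.29; adjusted p = 0.000159, 0.0107 and 0.000125), with 84.7%, 70.5% and 87.1% of all genes in that direction, and with the median of the markers its adjusted p at 1 and 2 wpt was 0.0873 and 0.346.

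In +MSC against +PBS over the 3 weeks, Glra1 was higher relative to the markers by 0.46 (SE 0.216, adjusted p = 0.0494, edgeR), where 0.178% of all genes were higher. This call was not stable: with 1 library left out the value stayed between 0.36 and 0.54, but the adjusted p ran from 0.0254 to 0.144 and missed the threshold in 16 of 26 fits, and with the median of the markers it was 0.44 (adjusted p = 0.123). Glra2 and Glra3 differed from the markers by 0.27 and 0.02 (adjusted p = 0.227 and 0.957). Glrb (-0.37, adjusted p = 0.0232) and Gphn (-0.68, adjusted p = 0.00134) were lower on this scale, as were 83.5% of all genes. The markers themselves lay between -0.51 and 0.35 in this comparison, and Glrb was inside that spread. By week, Gphn was lower at 1 and 4 wpt (-0.74 and -0.85; adjusted p = 0.0469 and 0.00828) and Glrb at 4 wpt (-0.49, adjusted p = 0.0495), with 54.2%, 0.00556% and 77.4% of all genes lower at the 3 weeks. With 1 library left out, the Gphn call at 4 wpt held in all 26 fits, that at 1 wpt missed the threshold in 17 (adjusted p = 0.0152 to 0.267) and that of Glrb at 4 wpt in 21 (adjusted p = 0.02 to 0.163). On the TMM scale the markers' own median difference between +MSC and +PBS was 0.90 (range 0.53 to 1.28), all 15 were higher and 13 passed the wider threshold, while the 6 fibroblast markers fell (median -1.23) and 2 of 8 microglia and macrophage markers fell.

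**Figure D4:**
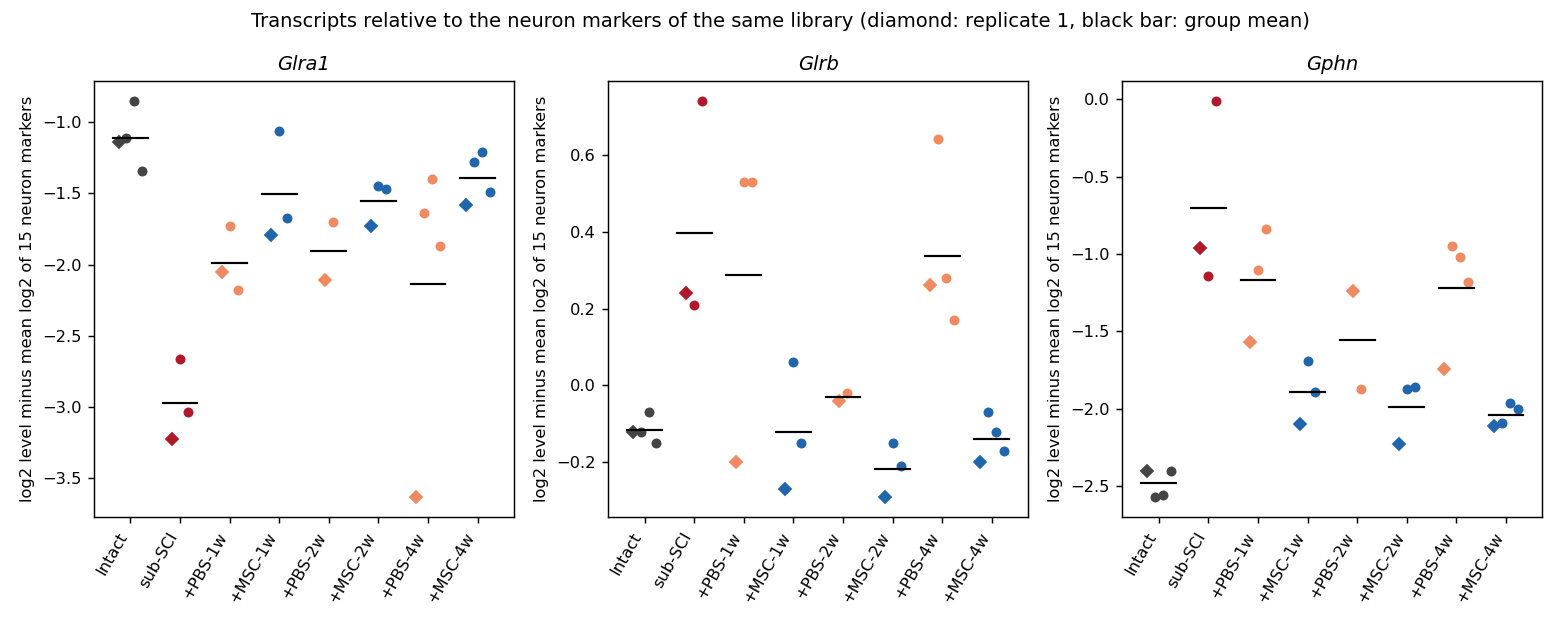
Log2 level of Glra1, Glrb and Gphn minus the mean log2 level of 15 neuron markers in each library, by group, with the group mean as a black bar. Glra1 lies at -1.34 to -0.85 in Intact and -3.22 to -2.66 in sub-SCI, whereas Gphn lies at -2.57 to -2.40 in Intact and -1.14 to -0.01 in sub-SCI.

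Relative to the neuron markers, the log2 level of Glrb lay between -0.15 and -0.07 in Intact, -0.29 and 0.06 in +MSC, and -0.20 and 0.64 in +PBS. Over all 26 libraries the log2 level of Glrb correlated with the mean log2 level of the neuron markers at r = 0.975, that of Gphn at 0.957, of Glra2 at 0.961, of Glra1 at 0.925 and of Glra3 at 0.738. On deviations from group means the values were 0.92, 0.873, 0.85, 0.551 and 0.136. The correlations of Glra1 and Glra3 include +PBS-4w replicate 1, which had the lowest levels of both and the highest marker level of its group. Their values without this library were not computed. For the 7 inhibitory neuron markers the deviations gave 0.898 for Glrb and 0.598 for Glra1. In the same order the 4 excitatory neuron markers gave 0.873 and 0.322, and the 6 motor neuron markers 0.67 and 0.52. The 8 oligodendrocyte markers gave 0.718 and 0.478. The points share libraries, depth and cell mixture, and the correlations are descriptions.

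No gene was among the 3 most like more than 1 member by the correlation of log2 levels over the 26 libraries, again a description. For Glra1 they were Ryr2 (r = 0.994), a calcium release channel, Hecw1 (0.992) and Atp8a2 (0.99), and on deviations from group means Ryr2 (0.97) and Hecw1 (0.925) were among them. For Glra2 they were Mtus2 (0.984), the dopamine receptor gene Drd2 (0.982) and Iqsec3 (0.981), a gephyrin partner, and on deviations Drd2 (0.931), Sgsm1 (0.93) and Mtus2 (0.928). Glra3 was most like Cacna1e (0.958), a voltage-gated calcium channel gene, Slc4a8 (0.954) and Arfgef3 (0.953). Glrb was most like Cxxc4 (0.991), Nap1l3 (0.99) and Brsk1 (0.989), and Gphn most like Tspan7 (0.971), Begain (0.969) and Olfm2 (0.967).
Among the members themselves, deviations from group means were closest for Glrb and Gphn (r = 0.864) and for Glra2 and Gphn (0.82). Those of Glra1 went with Glra3 (0.794) more than with Glrb (0.467), and Glra3 with Glrb gave -0.0292. These values include +PBS-4w replicate 1, with 0 Glra3 counts, the lowest Glra1 level and the highest Glrb level of its group. How far they rest on that library was not tested.

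**Figure D5:**
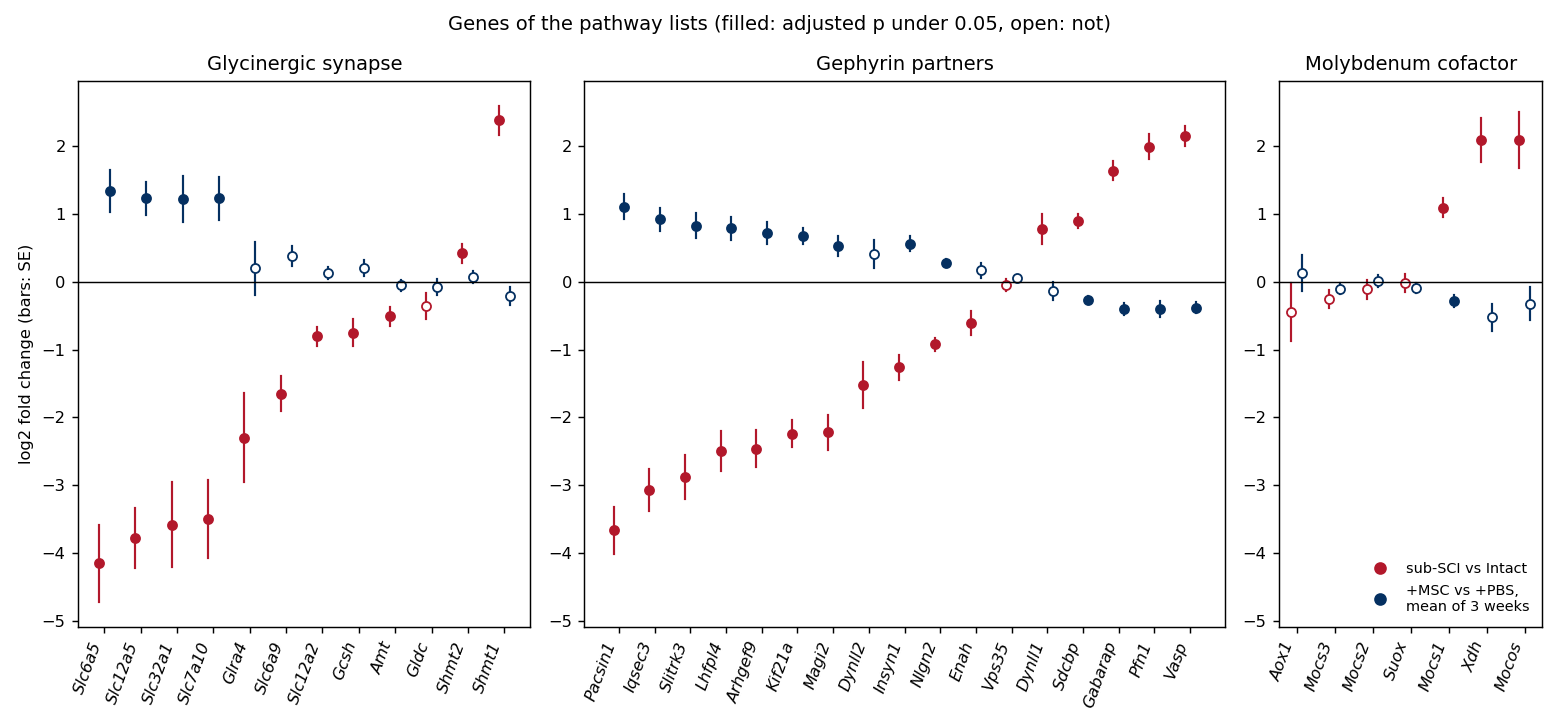
Log2 fold changes (bars, SE) of the genes of the glycinergic synapse, of gephyrin's partners and of the molybdenum cofactor pathway, for sub-SCI against Intact (red) and +MSC against +PBS over the 3 weeks (blue). The genes lowest in sub-SCI, such as Slc6a5 (-4.15) and Pacsin1 (-3.66), are among the highest in +MSC (1.34 and 1.11).

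Of the 12 other genes listed for the glycinergic synapse, 6 were DEGs lower in sub-SCI than in Intact and 1 was a DEG higher, against 17.5% and 16.6% of all genes, and the list's median log2 fold change was -1.22. The falls were largest for Slc6a5, the neuronal glycine transporter that marks glycinergic neurons (-4.15, adjusted p = 2.17e-06, edgeR), and Slc12a5, the potassium-chloride cotransporter KCC2 (-3.78, adjusted p = 2.22e-07). The astrocytic glycine transporter gene Slc6a9 fell by 1.65 (adjusted p = 9.95e-06) and the amino acid transporter gene Slc7a10 by 3.49 (adjusted p = 2.05e-05). The DEG that rose was Shmt1 (2.38, adjusted p = 6.95e-09), a hydroxymethyltransferase that interconverts serine and glycine.
In +MSC against +PBS over the 3 weeks 3 of the 12 were higher DEGs, namely Slc6a5 (1.34), Slc12a5 (1.23) and Slc7a10 (1.23; adjusted p = 0.00457, 0.00166 and 0.00956), against 1.61% of all genes, and none was a lower DEG (0.956% of all genes). At 4 wpt Slc12a5 alone passed the wider threshold (1.33, adjusted p = 0.0365). At 1 and 2 wpt no gene of the list did. Glra4, a further glycine receptor gene in this list, was a lower DEG in sub-SCI (-2.3, SE 0.654, adjusted p = 0.00431, edgeR). Over the 3 weeks its difference between +MSC and +PBS was 0.2 (SE 0.387, adjusted p = 0.754, edgeR).

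Gephyrin's partners moved in both directions. Of 17 listed genes in the table, 9 were DEGs lower and 3 were DEGs higher in sub-SCI, against 17.5% and 16.6% of all genes, with a median log2 fold change of -1.26. The DEGs that fell included Pacsin1 (-3.66, adjusted p = 1.25e-08, edgeR), Iqsec3 (-3.07, adjusted p = 3.39e-08) and the kinesin gene Kif21a (-2.24, adjusted p = 6.32e-09). Nlgn2, an adhesion protein gene of inhibitory synapses, fell by less than the DEG threshold (-0.92, adjusted p = 8.48e-08). The DEGs that rose were the actin regulators Vasp (2.15) and Pfn1 (1.99) and Gabarap (1.64; adjusted p = 1.01e-10, 1.13e-08 and 3.24e-09).
In +MSC against +PBS over the 3 weeks 9 of the 17 rose and 4 fell at the wider threshold, against 12.3% and 10.9% of all genes, and Pacsin1 was a DEG (1.11, adjusted p = 0.000746). Kif21a and Iqsec3 rose by 0.68 and 0.92 (adjusted p = 0.000746 and 0.00139), and Vasp and Gabarap fell by 0.38 and 0.40 (adjusted p = 0.00477 and 0.00346). The direction of these 5 partners was opposite to that in sub-SCI.

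The listed genes of molybdenum cofactor synthesis and use did not follow gephyrin. None of the 7 listed fell in sub-SCI, where 30.9% of all genes did, and 3 rose as DEGs (16.6% of all genes), namely Xdh (2.09), Mocos (2.09) and Mocs1 (1.09; adjusted p = 1.03e-05, 0.00014 and 7.9e-07, edgeR). Mocs2 and Mocs3 did not pass the wider threshold (-0.11 and -0.25; adjusted p = 0.515 and 0.109, edgeR). The list's median was -0.02, equal to that of all genes. Over the 3 weeks Mocs1 fell in +MSC against +PBS (-0.28, adjusted p = 0.0245), and the other 6 did not pass the threshold.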

How the data were processed

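Poly(A) RNA from 26 rat spinal cord segments was sequenced as paired ends. Per the submitters' processing notes and the study's methods, the authors trimmed reads with Trim Galore 0.5.0, removed those that mapped to the human genome and aligned the rest to Rnor6 with HISAT2 2.1.0. SAMtools 1.9 and, for the gene counts, featureCounts 1.6.4 are also named. They deposited raw counts of 32883 genes, and the annotation release and strand setting are not given in the sources used here. Removing human reads can also remove rat reads of conserved sequence, and this was not tested. Groups came from sample titles. The deposited counts were fitted in 1 model of all libraries by edgeR 4.0.16 (R 4.3.3; filterByExpr with a minimum count of 10 and total of 15, TMM, quasi-likelihood test, Benjamini-Hochberg adjustment over 17990 genes). The test was also run on simulated data in which few genes changed, a setting unlike that of sub-SCI against Intact. All adjusted p are from this test unless DESeq2 1.42.0 is named, the DEG thresholds follow the study's, and the wider adjusted p under 0.05 was set here. Log2 levels used a prior count of 2. The α subunit shares carry exact Clopper-Pearson intervals. Members, lists and markers were chosen with earlier results of these data known. All members were named, and of each list at most 4 genes a comparison and direction, by smallest adjusted p. Glra4 was named besides these, as a glycine receptor gene. One gene that the rule on likeness names is not reported here. Alternatives covered tool, libraries fitted, normalisation, filter, marker set, replicate block and leaving out libraries. Leaving out every replicate 1 library together was chosen after seeing the data. No 2 libraries of the same group agreed within sampling noise (chi-square per degree of freedom at least 5.94).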

Additional observations from a re-analysis of the deposited data

Results flagged for a closer look

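Dixon's test was run on 42 groups of 4 values, taken from Intact, +PBS-4w and +MSC-4w, and chance flags about 1 of 20 groups. That rate would give about as many flags as were seen. Both of the 2 flags fell on the library labelled +PBS-4w replicate 1, which was far from the other 3 of its group. Its Glrb level was 169 CPM, against 76 to 81 CPM in the others (a gap of 0.945 of the group's range). Its log2 level of Glra3 relative to the neuron markers was -10.9, against -6.93 to -6.31 (0.866 of the range), which rests on 0 counts and depends on the prior count. Without this library the mean of +PBS-4w was 78.9 ± 2.64 CPM for Glrb instead of 101 ± 45, 19.9 ± 3.64 CPM for Glra1 instead of 17.7 ± 5.2, and 0.585 ± 0.202 CPM for Glra3 instead of 0.439 ± 0.336 (SD, n = 3 and 4).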

How the results depend on the processing

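Without scaling to neuron markers, none of 1958 alternative log2 fold changes of the members changed sign, and 1875 kept their side of the DEG threshold. Most of these came from fits with 1 library left out, which share nearly all their libraries with the main fit. The counts below are members called. Where brackets follow, they hold the genes that the same fit called in the same direction. DESeq2 on all libraries called 2 in +MSC-4w against +PBS-4w (1.62% higher). Against Intact it called 1 in +MSC-2w (180 of 17668 lower) and 2 in +MSC-4w (457 of 18177 lower). With the compared groups only, DESeq2 called 2 in +MSC-1w against +PBS-1w (1.48% higher). Against Intact this DESeq2 fit called 1 in +MSC-2w (253 of 17417 lower) and 3 in +MSC-4w (529 of 18405 lower). On the compared groups edgeR called 0 in +MSC-4w against +PBS-4w, where it called 0 of all 16495 genes. Against Intact it called 1 in +MSC-2w (180 of 16384 lower) and 3 in +MSC-4w (427 of 16290 lower). In +MSC-1w against Intact, library totals alone gave 1 (292 of 17990 lower), as did no filter (328 of 26370 lower). No filter gave 0 in +MSC-4w against Intact (194 of 26370 lower). With at least 10 counts in every library, 14181 genes were tested and Glra2 and Glra3 were not. In that fit 2 were called in sub-SCI (2422 lower) and 2 in +PBS-4w (1475 lower). It also called 1 in +MSC against +PBS over the 3 weeks (1.27% higher) and 1 in +MSC-1w against Intact (434 lower). With every replicate 1 library left out, 0 were called in +PBS-2w, +MSC-4w against +PBS-4w, the 3 weeks and +MSC-4w against Intact, and 1 in +MSC-1w against Intact. For these changes, other than fewer genes or libraries tested, the cause was not tested.

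Relative to neuron markers (adjusted p under 0.05), the median of the markers gave 1 member in +PBS-1w, 0 in +PBS-2w, 0 in +MSC-1w against +PBS-1w and 1 over the 3 weeks, and turned Glrb to -0.05 in sub-SCI, -0.2 in +PBS-1w and -0.39 in +PBS-2w, Glra3 to -0.59 in +PBS-1w and Glra2 to -0.16 in +MSC-4w against +PBS-4w. Markers without Nefl and Nefm gave 0 and 1 members in +MSC-1w and +MSC-4w against +PBS, with Glra3 at 0.04 in the latter and -0.05 in +PBS-1w against Intact.

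Leaving out 1 library at a time (26 fits) gave 4 to 4 members called in sub-SCI, 3 to 4 in +PBS-1w, 0 to 3 in +PBS-2w, 4 to 4 in +PBS-4w, 0 to 1 in +MSC-4w against +PBS-4w, 1 to 2 over the 3 weeks, and 0 to 3, 0 to 1 and 0 to 2 in +MSC against Intact at 1, 2 and 4 wpt. Relative to neuron markers it gave 3 to 4 in sub-SCI, 1 to 3, 0 to 2 and 1 to 3 in +PBS, 0 to 2, 0 to 0 and 1 to 2 in +MSC against +PBS, and 2 to 3 over the 3 weeks. On that scale Glra3 ranged from -0.27 to 0.32 in +PBS-1w, -0.63 to 0.23 in +PBS-4w, -0.41 to 0.39, -0.08 to 0.15 and -0.49 to 0.36 in +MSC against +PBS by week and -0.14 to 0.15 over the 3 weeks, and Glra2 in +MSC-4w against +PBS-4w from -0.08 to 0.28.

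The replicate numbers share no stated source, and same-numbered libraries did not all deviate together: between +PBS and +MSC r was 0.131, -0.00893 and 0.0756 in order of number at 1 wpt and -0.0781 and -0.0549 at 2 wpt. At 4 wpt it was 0.171, 0.233, 0.0158 and 0.186, and replicates 1, 2 and 4 of +PBS correlated best with their own number and replicate 3 did not. At 1 wpt replicates 1 and 3 of +PBS correlated best with their own number and replicate 2 did not, and at 2 wpt no +PBS library did. Replicate 1 of Intact correlated with replicate 1 of the other groups at -0.0576 to 0.317. In every group but +PBS-2w that was its best match. Replicates 2 and 3 of Intact matched their own number in some groups, and replicate 4 in none. This is a hint from the data, not the design. With the replicate block, 4, 3, 3 and 4 members were called in sub-SCI and +PBS against Intact, 1 in +MSC-4w against +PBS-4w and 2 over the 3 weeks, as without it, and Glra3 relative to neuron markers turned to -0.01 in +MSC-1w and 0.07 in +MSC-4w against +PBS. Glra3 had 0 to 78 counts per library, the fewest of the members.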
